A study of Mus musculus with 6 samples.

Results

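Exons of long intergenic noncoding RNAs (lincRNAs) were measured in splenic B cells of arthritic and non-arthritic mice with 3457 array probes whose names mark them as mouse lincRNA exons. The probes were chosen by that name alone, and they made up 3457 of the 59709 probes on the array that were not controls. Each name held an exon number and a strand. The 1729 exon numbers ran, with gaps, from 10002 to 12127, and 1728 of them had a probe on both strands, which gave 1728 plus-strand and 1729 minus-strand probes. Each exon strand had 1 probe, printed as 1 spot on each array.

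The mice were female BALB/c, and their B cells were affinity purified from the spleen. The 3 arthritic mice were taken 10 days after the third injection of human proteoglycan, which induces arthritis in this strain. The 3 non-arthritic mice were taken 10 days after an injection of adjuvant. The treatment text of the labels was the same for both groups, so what else the non-arthritic mice received was not settled, and arthritis and immunization cannot be told apart. Every array held RNA of a different mouse, in 1 colour, and all 6 arrays lay on 1 slide scanned once. In these bulk samples fewer cells of a type and less RNA per cell cannot be told apart. The B-cell label was not checked against marker genes, because probes were not paired with gene names here.

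LincRNAs are transcripts of genes that lie between protein-coding genes. Many are spliced and polyadenylated as mRNAs are, most are low in abundance, and many are restricted to particular cell types or states. Some act in the nucleus on chromatin or transcription, and others act in the cytoplasm. In B cells, activation by antigen brings proliferation and differentiation toward germinal-centre and antibody-secreting cells, with wide changes in transcription. A transcript is made from 1 strand of the DNA, so an array with a probe on each strand measures the exon and its antisense side separately. Whether plus and minus in these names refer to the probe or to its target was not given in the sources used here. Exon numbers and strands are therefore used only as names. Host genes, positions and sequences of the exons were not analysed here.

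A probe counted as detected on an array where the scanner software marked its spot as well above background. Signals are given as log2 of the processed signal minus the array's own 75th percentile, so that 75% of the probes on an array lay below 0. A probe entered the tests if it was detected on at least 3 of the 6 arrays. By that rule 1263 of the 3457 exon probes (36.5%) were tested, against 46.7% of all probes, and the other 2194 were not. Differences between groups were tested with limma over all 27869 tested probes, with Benjamini-Hochberg adjusted p under 0.05 as the threshold for a call.

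Fewer of the lincRNA exon probes than of all probes were detected. On the arrays of non-arthritic mice 1, 2 and 3, 1166, 1271 and 1275 of them were detected. On those of arthritic mice 1, 2 and 3 the numbers were 1317, 1126 and 1254. The counts of the 2 groups overlapped, with both the highest and the lowest among the arthritic mice. Arthritic mouse 2, with the lowest count, also had the highest detection floor, at -2.07 (the lowest log2 signal among its detected probes) against -2.54 to -2.63 on the other arrays. On all 6 arrays 929 exon probes (26.9%) were detected, against 37.8% of all probes. On none of them were 1870 (54.1%), against 44.3% of all probes.

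The minus strand was detected more often than the plus strand on each of the 6 arrays. The share was 30.1% to 35.6% of plus-strand probes and 35.0% to 40.6% of minus-strand probes. Of the plus-strand probes 576 (33.3%) were tested, and of the minus-strand probes 687 (39.7%). In 224 of the 1728 exons with both probes (13.0%) both strands were tested, in 352 (20.4%) only the plus strand, in 463 (26.8%) only the minus strand and in 689 (39.9%) neither.

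Few exon probes were detected in all mice of 1 group and in none of the other. Detection on all 3 arthritic and no non-arthritic arrays was found for 8 of the 3457 probes (0.231%), against 0.293% of all probes. The opposite pattern was found for 17 (0.492%), against 0.499% of all probes. The 8 were divided evenly, 4 on each strand, while the 17 had 4 plus-strand and 13 minus-strand probes.

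The tested exon probes had a median signal of -0.66, with quartiles of -1.68 and 1.19, against a median of 0.17 for all tested probes. Their signals ran from -3.31 to 10.11. A signal above 5 was found for 74 of them (5.86%), against 13.1% of all tested probes. Signals of different probes depend on how well each binds and are not compared with one another as amounts of RNA. The brightest of these probes was on the minus strand of exon 10315, with 9.48, 10.27 and 10.40 in non-arthritic mice 1 to 3 and 10.16, 10.17 and 10.17 in arthritic mice 1 to 3. The next was on the minus strand of exon 12032, with 9.50, 10.90 and 10.21 in the non-arthritic mice and 9.94, 9.94 and 10.14 in the arthritic mice. Both had overlapping groups and did not pass the test (limma adjusted p = 0.824 and 0.787), with differences of 0.12 and -0.19.

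Non-arthritic mouse 1 stood apart among these bright probes and more widely. It was the lowest of the 6 arrays in 67 of the 74 probes above 5. Its array also had the highest 75th percentile of processed signal, which the scaling subtracts, at 187 against 109 to 144 on the others. Its tested exon probes differed by at least 2-fold from the mean of non-arthritic mice 2 and 3 in 22.1% of cases, whereas mice 2 and 3 differed from each other by that much in 5.23%. The median SD among the tested exon probes was 0.402 in the non-arthritic group and 0.141 in the arthritic group, and over all tested probes it was 0.397 and 0.096. Counts of calls, medians and the differences of named probes are therefore also given without it where it moved them. Slide position also differed between the groups: the 3 non-arthritic arrays and that of arthritic mouse 1 lay in the first row of the slide, and those of arthritic mice 2 and 3 in the second.

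Between the groups, 60 of the 1263 tested exon probes were higher in arthritic B cells and 48 were lower, and together they came from 107 exons. These 108 were 8.55% of the tested exon probes, beside 8.63% of all tested probes, so the share called was near the background. The higher probes were 4.75% (all probes 4.34%) and the lower ones 3.80% (all probes 4.29%). At least 2-fold by the fitted difference were 39 higher (3.09%, all probes 3.15%) and 39 lower exon probes (3.09%, all probes 2.74%), and the smallest called differences were 0.61 and -0.70 log2. The groups did not overlap in 447 (35.4%) of the tested exon probes, against 39.4% of all tested probes. Among the 929 exon probes detected on every array, 80 (8.61%) were called, against 8.49% of all such probes.

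The number of calls depended on single arrays, and whether the calls depended on slide row could not be decided. Without non-arthritic mouse 1 there were 215 higher and 219 lower exon probes (34.4%, beside 40.4% of all probes), and the 108 were all among them. Without non-arthritic mouse 2 or 3, 43 of the 108 were called again in each case. Those fits called 3.64% and 3.48% of the tested exon probes, beside 3.43% and 3.36% of all probes. Without arthritic mouse 1, 2 or 3, 14, 16 and 15 of the 108 were called again. The calls were then 1.11%, 1.27% and 1.19% of the tested exon probes, beside 1.05%, 1.30% and 1.23% of all probes. The 13 that were called in all 6 of these fits were 5 higher and 8 lower probes. With slide row as a block the median difference of the tested exon probes was 0.19, against 0.15 without it, and the median SE was 0.40, against 0.26. No exon probe then passed limma's adjusted threshold, 150 passed at an unadjusted p under 0.05, and 1 of all 27869 probes (0.00359%) was called. With normexp background correction of the median spot signals, 99 exon probes were higher and 35 lower. None of the 108 changed direction under any of these settings.

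The differences of the tested exon probes as a whole lay slightly above 0. Their median log2 difference, arthritic minus non-arthritic, was 0.15 (quartiles -0.17 and 0.51), against 0.06 for all tested probes, and 62.0% of them were above 0, against 55.0% of all. Without non-arthritic mouse 1 the median was 0.0088, against -0.03 for all probes.

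By strand, plus-strand probes were called mostly higher and minus-strand probes more often lower, although the minus-strand balance turned to higher among probes detected on all arrays and with another background correction. Of the 576 tested plus-strand probes 33 were higher (5.73%) and 12 lower (2.08%). Of the 687 minus-strand probes 27 were higher (3.93%) and 36 lower (5.24%). Over all tested probes 4.34% were higher and 4.29% lower. The median difference was 0.22 on the plus strand, with 67.7% above 0, and 0.09 on the minus strand, with 57.2% above 0. Without non-arthritic mouse 1 these medians were 0.05 and -0.04, so that the minus-strand median changed sign. Among probes detected on all 6 arrays the calls were 28 higher and 9 lower of 428 on the plus strand, and 23 higher and 20 lower of 501 on the minus strand. When non-arthritic mouse 1 was left out, 110 plus-strand probes were higher and 67 lower, and 105 minus-strand probes were higher and 152 lower. That fit called 40.4% of all probes. Without an arthritic mouse, 2 or fewer plus-strand probes were called in each direction, and 3 to 6 minus-strand probes were higher and 7 or 8 lower. Those fits called 1.05% to 1.30% of all probes. With normexp background correction of the median spot signals the minus-strand split turned to 38 higher and 28 lower, with 61 higher and 7 lower on the plus strand (9.72% of all probes were called with it). The difference between the strands was not tested.

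The largest increases among exon probes detected on all 6 arrays were those of exons 11834, 11395, 10171 and 11480. The plus-strand probe of exon 11834 read -0.03, 1.07 and 1.30 in the 3 non-arthritic mice and 3.62, 3.60 and 3.51 in the 3 arthritic mice. All arthritic mice lay above all non-arthritic mice, and non-arthritic mouse 1 was the lowest. The difference was 2.80 ± 0.356 (SE; 6.95-fold, limma adjusted p = 0.00918, n = 3 and 3). The call held without any 1 non-arthritic mouse and was lost without any 1 arthritic mouse, with the highest adjusted p at 0.0625.

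On the minus strand, the probe of exon 11395 read -0.47, 0.38 and 0.43 in the non-arthritic mice and 2.77, 2.81 and 2.95 in the arthritic mice. The arthritic values lay close together and above every non-arthritic value, a difference of 2.73 ± 0.272 (SE; 6.64-fold, limma adjusted p = 0.00478). That of exon 10171 read 4.18, 4.68 and 4.83 in the non-arthritic mice and 7.13, 7.30 and 7.23 in the arthritic mice. Here too the groups did not overlap, and the difference was 2.65 ± 0.208 (SE; 6.29-fold, limma adjusted p = 0.00332). Exons 11395 and 10171 kept their calls without any 1 of the 6 mice, with highest adjusted p-values of 0.044 and 0.0367.

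The minus-strand probe of exon 11480 read -1.87, -0.95 and -0.99 in the non-arthritic mice and 1.41, 0.40 and 1.39 in the arthritic mice. Arthritic mouse 2 lay about 1 log2 unit below the other arthritic mice but above all non-arthritic mice. The difference was 2.34 ± 0.38 (SE; 5.06-fold, limma adjusted p = 0.0183), and the call was lost without non-arthritic mouse 3, arthritic mouse 1 or arthritic mouse 3 (highest adjusted p = 0.0981).

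The largest decreases among exon probes detected on all 6 arrays were those of exons 10416, 10170, 11601 and 10419, all on the minus strand. That of exon 10416 read 5.40, 4.90 and 4.85 in the non-arthritic mice and 2.12, 2.09 and 2.25 in the arthritic mice. Each arthritic value was below each non-arthritic value by a wide margin. The difference was -2.90 ± 0.197 (SE; 7.45-fold lower, limma adjusted p = 0.00247).

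The minus-strand probe of exon 10170 read 1.88, 2.46 and 2.43 in the non-arthritic mice and -0.15, -0.16 and -0.28 in the arthritic mice, with no overlap. It fell by 2.45 ± 0.203 on the log2 scale (SE; 5.48-fold lower, limma adjusted p = 0.00357), whereas the probe with the next exon number on the same strand, 10171, rose. That of exon 11601 read 1.80, 2.26 and 2.35 in the non-arthritic mice and -0.11, -0.35 and -0.07 in the arthritic mice. The groups were again separate, and the difference was -2.31 ± 0.202 (SE; 4.97-fold lower, limma adjusted p = 0.00372). These decreases of 10416, 10170 and 11601 were called without any 1 of the 6 mice.

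The minus-strand probe of exon 10419 read 1.01, -0.13 and -0.22 in the non-arthritic mice and -1.66, -1.49 and -1.48 in the arthritic mice. Non-arthritic mouse 1 was the highest, and without it the difference was -1.37 in place of -1.77 ± 0.344 (SE; 3.40-fold lower, limma adjusted p = 0.031). The call held only without non-arthritic mouse 1 among the fits that left out 1 mouse. It was also lost without a detection filter (limma adjusted p = 0.0596). Without non-arthritic mouse 1 the 4 increases (exons 11834, 11395, 10171 and 11480) were 2.39, 2.44, 2.46 and 2.04. The decreases of exons 10416, 10170 and 11601 were then -2.72, -2.64 and -2.48. With slide row as a block, which leaves only arthritic mouse 1 in its group, the differences of these 8 probes had similar sizes. They were from 2.56 to 2.84 for the increases and from -1.88 to -2.93 for the decreases. The probes had been chosen for separate groups that included that mouse. Similar sizes were therefore nearly fixed in advance and cannot decide the part of slide row. Normexp background correction adds an offset of 50 to every signal. With it the differences of exons 11834, 11395, 10171 and 11480 were 2.59, 2.32, 2.77 and 1.44. Those of exons 10416, 10170, 11601 and 10419 were -2.66, -1.86, -1.71 and -1.06.

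Some called probes were detected in 1 group only, so only a lower bound of their fold change could be given. The bound set the mean of the brighter group against the mean, over the arrays of the other group, of the higher of the probe's own signal and the lowest signal of any detected probe there. Of the 60 higher probes 3 were of this kind, and of the 48 lower ones 9. Over all tested probes, 110 of the 1209 higher ones and 157 of the 1196 lower ones were. Such a probe entered the tests only through the group in which it was high, and had to differ.

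On the minus strand of exon 11815 the spots of the non-arthritic mice were not well above background (-4.09, -2.68 and -2.54), and those of the arthritic mice read 0.24, 0.11 and 0.22. It was at least 6.76-fold higher in the arthritic group (limma adjusted p = 0.00918), a call lost without any 1 arthritic mouse. On the plus strand of exon 11933 the non-arthritic spots were likewise not well above background (-3.89, -2.73 and -2.50), and the arthritic mice read -1.22, -1.48 and -1.46. It was at least 2.25-fold higher (limma adjusted p = 0.0469), a call that held without non-arthritic mouse 1 and was lost without any other 1 mouse. It was also lost with normexp, where the log2 difference was 0.33 (limma adjusted p = 0.445), without a detection filter (0.0889), with robust variance (0.0519) and with flagged spots as missing (0.0509).

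In the other direction, the minus-strand probe of exon 11508 read 0.09, -1.08 and -1.25 in the non-arthritic mice, and the arthritic spots were not well above background (-3.74, -2.66 and -3.19). The arthritic group was at least 3.14-fold lower (limma adjusted p = 0.0241). The plus-strand probe of exon 10613 read -0.36, -1.32 and -1.57 in the non-arthritic mice, and again the arthritic spots were not well above background (-2.50, -2.45 and -2.59). It was at least 2.44-fold lower (limma adjusted p = 0.0479). In both of them non-arthritic mouse 1 was about 1 log2 unit above the other non-arthritic mice. Both calls held without that mouse and were lost without any other 1 mouse. The call of exon 10613 was also lost with median scaling (limma adjusted p = 0.0538), the percentile over detected probes (0.0581), cyclic loess (0.0546), an intensity trend (0.0502), robust variance (0.0527), no detection filter (0.0925) and flagged spots as missing (0.101). With normexp the log2 differences of exons 11815, 11508 and 10613 were 1.38, -1.06 and -0.67, all called.

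Calls on both strands of an exon were few, as were calls on either strand. Over the 224 exons tested on both strands, 37 had a call on 1 strand and 1 had calls on both, where 7.81% of all tested plus-strand and 9.17% of all tested minus-strand exon probes were called. Whether double calls were rarer than those shares would give was not tested. The differences on the 2 strands had the same sign in 134 exons (59.8%). Across these exons their correlation was 0.15 (Pearson) and 0.22 (Spearman); this is a description of probes that share the same 6 arrays.

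The change of 1 strand relative to the other was tested as the log2 ratio of the plus-strand over the minus-strand probe within each array, which cancels any scaling of the whole array. The zero point of such a ratio depends on the 2 probes, so only its change between groups is read. With p-values adjusted over the 261 strand pairs of all lincRNA probe families on the array, the ratio changed in 18 of the 224 exons (8.04%, beside 8.81% of all 261 pairs). It moved toward the plus strand in 13 (5.80%, all pairs 6.13%) and toward the minus strand in 5 (2.23%, all pairs 2.68%). The plus-strand probe alone was called in 5 of the 18, the minus-strand probe alone in 8, both in 1 and neither in 4. In 12 of the 18 the differences on the 2 strands had opposite signs. Among the 113 exons with both strands detected on every array, 8 ratios were called (7.08%). In the rest of the 18, at least 1 strand was below detection on some array. Where a strand was detected in 1 group only, the pair entered through that group, and its ratio had to move. Of the 18, 16 were called again without non-arthritic mouse 1, when 27 passed (11.9% of all pairs). Without non-arthritic mouse 2 or 3, 14 and 2 of the 224 passed (6.51% and 0.766% of all pairs). Without arthritic mouse 1, 2 or 3 limma called 0 of them (0% of all pairs), and 35, 39 and 35 were under an unadjusted p of 0.05.

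Exon 10613 was the only exon called on both strands, in opposite directions, with the plus-strand call close to the threshold and lost under the settings named for it. Beside that plus-strand decrease, its minus-strand probe read -1.67, -1.24 and -1.51 in the non-arthritic mice and 0.27, 0.48 and 0.21 in the arthritic mice. It rose by 1.79 ± 0.178 (SE; 3.47-fold, limma adjusted p = 0.00478), and this call held without any 1 of the 6 mice. With normexp its difference was 0.96 (limma adjusted p = 0.0179). The ratio fell by 3.22 ± 0.413 (SE; limma adjusted p = 0.0137). The plus-strand probe entered the tests only through the non-arthritic group, where it was high, and had to differ. Its call, the count of both strands as called and the p-value of the ratio all rest on that entry.

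In exon 11815 the plus-strand probe read -0.06, 0.41 and 0.42 in the non-arthritic mice and 0.40, 0.65 and 0.42 in the arthritic mice, overlapping values with a difference of 0.23 (limma adjusted p = 0.511). The minus-strand probe was the one detected in arthritic mice only, and the ratio fell by 3.06 ± 0.345 (SE; limma adjusted p = 0.0137). In exon 11508 the plus-strand probe read 0.19, 1.50 and 0.93 in the non-arthritic mice and 1.87, 1.81 and 1.23 in the arthritic mice, also overlapping, with a difference of 0.76 (limma adjusted p = 0.268). With its minus strand lost from detection in arthritic mice, the ratio moved by 3.21 ± 0.701 toward the plus strand (SE; limma adjusted p = 0.0398).

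In exon 10416 the large minus-strand decrease had no counterpart on the plus strand, whose difference was 0.07 (limma adjusted p = 0.945). The plus-strand probe was detected in 2 non-arthritic mice and 1 arthritic mouse only. The ratio moved by 2.97 ± 0.613 toward the plus strand (SE; limma adjusted p = 0.0394). In the ratios of exons 10613, 11815, 11508 and 10416, 1 strand was below detection on some arrays, so their sizes are not measured on both sides. In exons 10613, 11815 and 11508 that strand entered only through the group where it was high. Their ratios therefore had to move, and their p-values are no separate support. Without non-arthritic mouse 1 these changes were -2.76, -2.72, 2.45 and 2.26.

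Other exons had both strands detected on every array. In exon 10114 the ratio was -0.30, -1.04 and -0.16 in the non-arthritic mice and 1.73, 1.12 and 1.45 in the arthritic mice, a change of 1.93 ± 0.322 (SE; limma adjusted p = 0.023). Here the minus-strand probe fell by 1.65 (limma adjusted p = 0.00478) and the plus-strand probe differed by 0.28 (0.567). In exon 10484 the plus-strand probe was the one that rose, by 2.04 (limma adjusted p = 0.00357), and the minus-strand probe differed by 0.35 (0.230). Its ratio was 2.52, 1.79 and 2.02 in the non-arthritic mice and 3.78, 3.91 and 3.70 in the arthritic mice.

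The strand ratios of exons 10976 and 12074 moved in opposite directions. In exon 10976 the plus-strand probe rose by 1.61 (limma adjusted p = 0.0254), the minus-strand probe differed by 0.29 (0.536), and the ratio moved by 1.32 ± 0.253 toward the plus strand (SE; 0.0324). In exon 12074 the minus-strand probe rose by 1.44 (limma adjusted p = 0.00705), the plus-strand probe differed by 0.43 (0.247), and the ratio fell by 1.01 ± 0.206 (SE; 0.0394).

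Exon numbers allowed neighbouring members to be set side by side, although how the numbers follow the genome was not given in the sources used here. Among pairs of consecutive exon numbers tested on the same strand, 194 on the plus and 263 on the minus strand, the differences had correlations of 0.15 and 0.12. At 2 numbers apart the correlations were 0.20 on the plus strand (183 pairs) and 0.21 on the minus strand (251 pairs), and at 10 apart -0.01 (184 pairs) and 0.13 (219 pairs), so on the minus strand consecutive numbers correlated no more than those 10 apart. All of these pairs share the same 6 arrays. Both members were called in the same direction in 1 plus-strand and 5 minus-strand pairs, and in opposite directions in 1 minus-strand pair, that of 10170 and 10171. The pairs called in the same direction were exons 11369 and 11370 on the plus strand, both higher, and on the minus strand exons 10201 and 10202, 11601 and 11602, and 11704 and 11705, all lower, with the other 2 in the run that follows.

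Exons 10414, 10415 and 10416 on the minus strand were the only run of 3 or more consecutive numbers called in 1 direction, and all 3 were lower in arthritic mice. That of 10414 read -0.01, -2.04 and -1.96 in the non-arthritic mice, and its arthritic spots were not well above background (-4.76, -4.36 and -4.79), which made it at least 2.09-fold lower (limma adjusted p = 0.0203), or at least 1.32-fold without non-arthritic mouse 1. With normexp its log2 difference was -1.05 in place of -3.30. This probe entered the tests only through the non-arthritic group, where it was high, and had to differ, so the run of 3 depends on it. That of 10415 was bright in all mice, at 8.51, 9.33 and 9.38 in the non-arthritic and 7.82, 7.80 and 7.90 in the arthritic mice. Its groups were separate, with a difference of -1.23 ± 0.26 (SE; 2.35-fold lower, limma adjusted p = 0.0392), or -1.51 without non-arthritic mouse 1. Its call was also lost without a detection filter (limma adjusted p = 0.0804). Non-arthritic mouse 1 was the lowest of its group in exon 10415 and the highest in exons 10414 and 10416. The call of 10414 was lost without any 1 arthritic mouse, and that of 10415 without any 1 mouse other than non-arthritic mouse 1.

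The numbers from 10404 to 10426 around this run, a stretch chosen after its values were seen, held 19 exon numbers and 38 probes, of which 18 were tested. Of these, 5 were lower and none higher, and all 5 were among the 11 tested minus-strand probes (exons 10404, 10414, 10415, 10416 and 10419). Over all tested probes 4.29% were lower, and the probe of exon 10414 had to differ by the way it entered the tests. On the minus strand 8 of the 11 differences were below 0, and on the plus strand 3 of 7. The minus-strand probe of exon 10404 read -0.15, 0.21 and -0.05 in the non-arthritic mice and -2.11, -1.97 and -1.83 in the arthritic mice, without overlap. Its difference was -1.98 ± 0.17 (SE; limma adjusted p = 0.00358), and it was called without any 1 of the 6 mice.

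Not every minus-strand member of the stretch was called. Exon 10417 read 4.73, 2.00 and 2.08 in the non-arthritic mice and -0.11, -0.03 and 0.07 in the arthritic mice. The groups were separate, but non-arthritic mouse 1 stood far above its group, and the difference of -2.96 ± 0.728 (SE) did not pass the test (limma adjusted p = 0.0598). Without that mouse it was -2.06 (limma adjusted p = 0.00043), in a fit that called 40.4% of all probes. Exons 10418 and 10422 had differences of -0.05 (limma adjusted p = 0.949) and -0.55 (0.101).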

How the data were processed

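The deposited scanner files hold 1-colour spot intensity as a processed signal, background-subtracted within the array by Agilent Feature Extraction, per the file headers, and not normalized between arrays. The headers give its version as 11.0.1.1, the submitters' processing notes as 9.1, and the headers name the genome build mm9. Other columns of the deposited files hold flags per spot. The authors' deposited table of log2 values held 13655 probes and 0 of the exon probes, and was not used further.

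Control spots were left out. The processed signal was scaled to the 75th percentile of each array, taken as log2 and fitted with limma 3.58.1 in R 4.3.3 (lmFit and eBayes, group as the only term, all 6 arrays) over all probes detected on at least 3 arrays. The script was checked on simulated data. The number of arrays limits the precision, and p-values measure the spread between mice.

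The exon probes and the lists were chosen with earlier results of these data known. Probes were named by a rule: the 4 largest called changes in each direction among probes detected on all arrays with separate groups, the 2 largest bounds in each direction, the 2 largest changes of strand ratio in each direction, runs of at least 3 exon numbers called 1 way, and the 2 brightest probes. A further part, exons with several probes on 1 strand, found nothing. Other exons named were chosen after their values were seen. Of the 3457 probe names 0 matched the RefSeq gene table (GRCm38.p6), so gene lists and cell type markers were not used here. Replicate numbers were not taken as pairs. Alternatives covered scaling, background correction, detection filter, variance model, array weights, flagged spots, slide row, a replicate block and each mouse left out. The fit within 1 slide row, the strand ratios at 2-fold and under other scalings, and the bounds without non-arthritic mouse 1 were added after seeing the data.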

Additional observations from a re-analysis of the deposited data

Results flagged for a closer look

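Control spots were used in no comparison above. Of 56 control names, 2 passed the detection flag on every array, and both read higher in all 3 arthritic than in all 3 non-arthritic mice on the scale used for the exon probes. The corner control GE_BrightCorner was higher by 0.648 log2 (7.59 ± 0.133 against 6.94 ± 0.255, SD, n = 3 each). The control named ERCC-00062_278 was higher by 0.353 log2 (-1.05 ± 0.081 against -1.40 ± 0.303, SD, n = 3 each). Their part in the exon probe differences was not tested.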

How the results depend on the processing

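None of the 108 called exon probes changed direction under any alternative, and the median difference of the tested exon probes stayed between 0.0088 and 0.22. The counts of calls moved. Higher and lower exon probes numbered 80 and 82 with the percentile over detected probes, 105 and 77 with cyclic loess and 99 and 35 with normexp (73.9% higher, against 55.6%). Together these were 12.8%, 14.4% and 10.6% of the tested exon probes, beside 12.3%, 13.9% and 9.72% of all probes. Higher and lower exon probes numbered 34 and 27 without a detection filter (1.76%, beside 2.34% of all probes) and 239 and 250 with array weights (38.7%, beside 44.2%). At 2-fold or more there were 39 and 39, with the shares given above. Slide row as a block and the fit within the row that holds both groups both rest on arthritic mouse 1 alone in its group. Their counts of calls are therefore not given, and the median difference was 0.19 in both. Leaving out 1 mouse gave 5 to 215 higher, 8 to 219 lower and 0 to 27 changed strand ratios. The share of tested exon probes called then ran from 1.11% to 34.4%, and that of all probes from 1.05% to 40.4%. In place of the 18 changed strand ratios there were 33 with normexp, 3 without a filter, 9 with detection on all 6 arrays and 35 with array weights. The positive-and-significant flag in place of well above background gave 2093 detected exon probes in place of 1263. Quantile and median scaling, robust variance, flagged spots as missing and an intensity trend kept all of these counts within 1.5 times. The cause of these moves was not tested.

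With mouse number as a replicate block there were 21 higher and 18 lower exon probes (3.09%, beside 3.27% of all probes) and 12 changed strand ratios. Deviations of same-numbered mice correlated at 0.04, 0.29 and 0.24, not all over 0.1; each mouse correlated best with its own number, a hint from the data and not the design.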

Other observations

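Of the tested exon probes, 4 had fitted differences of at least 4-fold without passing the test, and in each the groups were separate and non-arthritic mouse 1 lay far from its group. Besides exon 10417 these were the minus-strand probe of exon 11201 (2.69, -2.34 and -2.33 in the non-arthritic mice, arthritic spots not well above background, at least 3.33-fold lower, or 1.04-fold without non-arthritic mouse 1, limma adjusted p = 0.14), the plus-strand probe of exon 10325 (2.54, -1.12 and -0.88, arthritic spots not well above background, at least 5.97-fold lower, or 2.64-fold without that mouse, limma adjusted p = 0.125) and the minus-strand probe of exon 10757 (-4.41, -1.38 and -1.85 against 0.01, 0.17 and 0.25, limma adjusted p = 0.087). Without non-arthritic mouse 1 all 4 passed, with limma adjusted p-values from 0.00043 to 0.0121, in a fit that called 40.4% of all probes. The probes of exons 11201 and 10325 entered the tests only through the non-arthritic group, where they were high, and had to differ.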
